A study of Homo sapiens with 12 samples.

Results

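The genes described here are 8 transcription factors of endoderm, liver and gut: FOXA1, FOXA2, FOXA3, HNF4A, SOX17, ONECUT1, NR1H4 and CDX2. They were taken by gene symbol, with no use of measured values, from a table of 61806 genes. RNA-seq was carried out on H1 human embryonic stem cells, an established line with the WT genotype, during differentiation through mesendoderm progenitors towards cardiomyocytes. In all groups, cells were first treated with the WNT activator CHIR-99021 and then with insulin in DF medium, a defined medium. NP-IWP2 cells stayed in their wells (static culture, not passaged) and received IWP2, an inhibitor of WNT secretion. P-DF cells were dissociated with EDTA and replated on Day 2, without IWP2, and P-IWP2 cells were replated on Day 2 and received IWP2. There were 2 libraries of each on Day 12 (D12) and 2 on Day 16 (D16), so 12 libraries in 6 groups, numbered 1 and 2 for NP-IWP2, 3 and 4 for P-DF and 5 and 6 for P-IWP2. Every group comes from 1 cell line. Static cells without IWP2 were not analysed here, so a difference between P-DF and NP-IWP2 holds both the replating and the lack of IWP2, and replating itself brings dissociation, a fresh coated well and a new density. The study also describes a ROCK inhibitor, a survival factor for dissociated cells, at replating, which the labels do not state for these samples. Nothing in the labels says that the libraries of a group came from separate cultures, so p-values measure the spread between these libraries, which may be technical.

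FOXA1, FOXA2 and FOXA3 are forkhead factors that bind closed chromatin and open it for other factors, and FOXA2 marks definitive endoderm and its derivatives. SOX17 is required for definitive endoderm and is also a factor of arterial and haemogenic endothelium. HNF4A is a nuclear receptor that switches on most genes of secreted liver proteins, ONECUT1 (HNF6) acts with it in liver and biliary development, NR1H4 (FXR) is the bile acid receptor, and CDX2 sets intestinal identity. CHIR-99021 gives mesendoderm, from which both cardiac mesoderm and endoderm can form, and these genes are known as markers of the endodermal branch.

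In the annotation, whose gene positions equal those of the count table (GRCh38), FOXA1 lies on chromosome 14 (37589552 to 37596059, minus strand) and FOXA2 on chromosome 20 (22580998 to 22585455, minus strand). FOXA3 lies on chromosome 19 (45863989 to 45873797, plus strand) and HNF4A on chromosome 20 (44355699 to 44432845, plus strand). ONECUT1 lies on chromosome 15 (52755053 to 52791078, minus strand), NR1H4 on chromosome 12 (100473708 to 100564414, plus strand) and CDX2 on chromosome 13 (27960918 to 27969315, minus strand). Counts are per whole gene and do not tell exons or isoforms apart. HNF4A is overlapped on the opposite strand by the lncRNA HNF4A-AS1, which held 0 to 8 counts per library, and FOXA1 by TTC6, which held 0 to 6. The strand setting of the counting is not given in the sources used here, so reads of such partners cannot be told apart where genes overlap.

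Factors of this kind act in part on one another's genes, so the start-site windows of the 4 members that held matches are shown with the letters of 5 motifs marked. Each window covers 250 bases before to 50 after a start site, from RefSeq (GRCh38.p14), and 6 members had at least 1 window (7 windows in all, 2 of them for HNF4A). The motifs, searched on both strands, were a FOXA motif (the letters TGTTTAC, with TGTTTGC also taken), found in 7.2% of all 35116 windows, a short HNF4 motif (the letters CAAAGTCC) found in 1.2%, a short HNF1 motif (the letters GTTAAT) found in 6.9%, an ONECUT motif (the letters ATCGAT, with ATTGAT also taken) found in 7.0% and a GATA motif (the letters AGATAA) found in 10.3%. No 2 matches in the windows shown overlap. Capitals mark the matches, and sequences are written 5′ to 3′ on the strand of the gene.
HNF4A, first start site, chr20:44355449-44355748, plus strand: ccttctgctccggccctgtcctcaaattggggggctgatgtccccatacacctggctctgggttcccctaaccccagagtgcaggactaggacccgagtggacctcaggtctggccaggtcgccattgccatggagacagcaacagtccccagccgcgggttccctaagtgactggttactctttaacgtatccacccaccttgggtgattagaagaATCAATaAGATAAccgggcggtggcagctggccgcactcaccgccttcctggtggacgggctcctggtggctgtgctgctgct
HNF4A, second start site, chr20:44400989-44401288, plus strand: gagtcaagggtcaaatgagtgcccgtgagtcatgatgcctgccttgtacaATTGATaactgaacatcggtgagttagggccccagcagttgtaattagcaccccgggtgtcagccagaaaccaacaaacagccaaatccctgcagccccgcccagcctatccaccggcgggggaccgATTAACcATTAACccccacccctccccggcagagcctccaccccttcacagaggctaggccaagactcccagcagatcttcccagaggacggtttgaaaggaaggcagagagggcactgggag
NR1H4, chr12:100503110-100503409, plus strand: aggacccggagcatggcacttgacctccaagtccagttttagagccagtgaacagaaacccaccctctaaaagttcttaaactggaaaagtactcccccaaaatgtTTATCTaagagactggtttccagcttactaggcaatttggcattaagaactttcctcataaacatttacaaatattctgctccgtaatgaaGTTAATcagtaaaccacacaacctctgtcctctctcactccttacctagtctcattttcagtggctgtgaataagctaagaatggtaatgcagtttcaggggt
CDX2, chr13:27969266-27969565, minus strand: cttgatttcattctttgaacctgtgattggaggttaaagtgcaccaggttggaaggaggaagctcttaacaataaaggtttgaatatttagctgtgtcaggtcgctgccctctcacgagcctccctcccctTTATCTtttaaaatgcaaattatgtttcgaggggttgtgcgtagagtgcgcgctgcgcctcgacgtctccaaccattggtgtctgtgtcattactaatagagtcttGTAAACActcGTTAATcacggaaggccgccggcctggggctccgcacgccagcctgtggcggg
FOXA1, chr14:37595200-37595499, minus strand: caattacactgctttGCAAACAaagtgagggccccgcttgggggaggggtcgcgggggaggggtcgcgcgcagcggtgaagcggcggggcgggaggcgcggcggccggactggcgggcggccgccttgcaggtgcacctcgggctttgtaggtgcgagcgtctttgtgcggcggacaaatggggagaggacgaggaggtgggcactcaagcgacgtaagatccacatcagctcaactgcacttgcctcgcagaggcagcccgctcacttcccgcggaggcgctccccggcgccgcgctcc
The first HNF4A window held an ONECUT match and a GATA match next to each other, 33 and 26 bases before the start site. The second HNF4A window held 2 HNF1 matches, 73 and 66 bases before the start, and an ONECUT match. The CDX2 window held a FOXA match and an HNF1 match 13 and 3 bases before the start, with a GATA match farther up. The NR1H4 window held an HNF1 match and a GATA match, and the FOXA1 window held a FOXA match 235 bases before the start. The windows of FOXA3 and ONECUT1 held none of these letters, and the HNF4 motif matched in none of the 7 windows. No binding was measured in these data, so the matches are a description of the sequence.

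The read counts of a library summed to between 14885589 and 19176239. A count of 0 allows up to 3 counts, which is 0.156 to 0.202 CPM (the count divided by its library's total and scaled) in these libraries and covers counting error only. The 11 cardiomyocyte markers were all detected in every library, with a summed level of 2450 to 11683 FPKM (the count scaled to exon length and library total). One library, D12 P-IWP2 replicate 5, stood apart. Its cardiomyocyte marker sum of 2450 FPKM compares with 5206 to 5975 in the other Day 12 libraries, and 3 members (SOX17, NR1H4 and HNF4A) had 5 or more counts there and 0 in replicate 6. Where leaving it out changed the call of a member, both values are therefore given. Leaving it out also changed the calls over all genes in P-IWP2 against NP-IWP2 over both days. With it, 481 of 19505 genes were called, 403 lower and 78 higher. Without it, 4924 of 20518 genes were called, 2892 lower and the rest higher. For SOX17, NR1H4 and HNF4A, it held the only passaged counts. A call of these members gained without it therefore follows partly from leaving those counts out.

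All 8 members passed the filter on low counts, which asks for about 0.608 CPM in 2 libraries, but FOXA1, FOXA2, FOXA3, HNF4A and CDX2 reached that level only in NP-IWP2 libraries, and SOX17 and NR1H4 in 2 NP-IWP2 libraries and 1 passaged one, D12 P-IWP2 replicate 5. These 7 were tested only because they were high in static culture, and ONECUT1 alone reached the level in 2 or more passaged libraries, so the counts of members below describe the members and support nothing further. Members were tested among 19505 genes with the two-sided quasi-likelihood test of edgeR, and called at a Benjamini-Hochberg adjusted p under 0.05. Because these are bulk samples, fewer cells of a type and less RNA per cell cannot be told apart in any of these results.

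**Figure D1:**
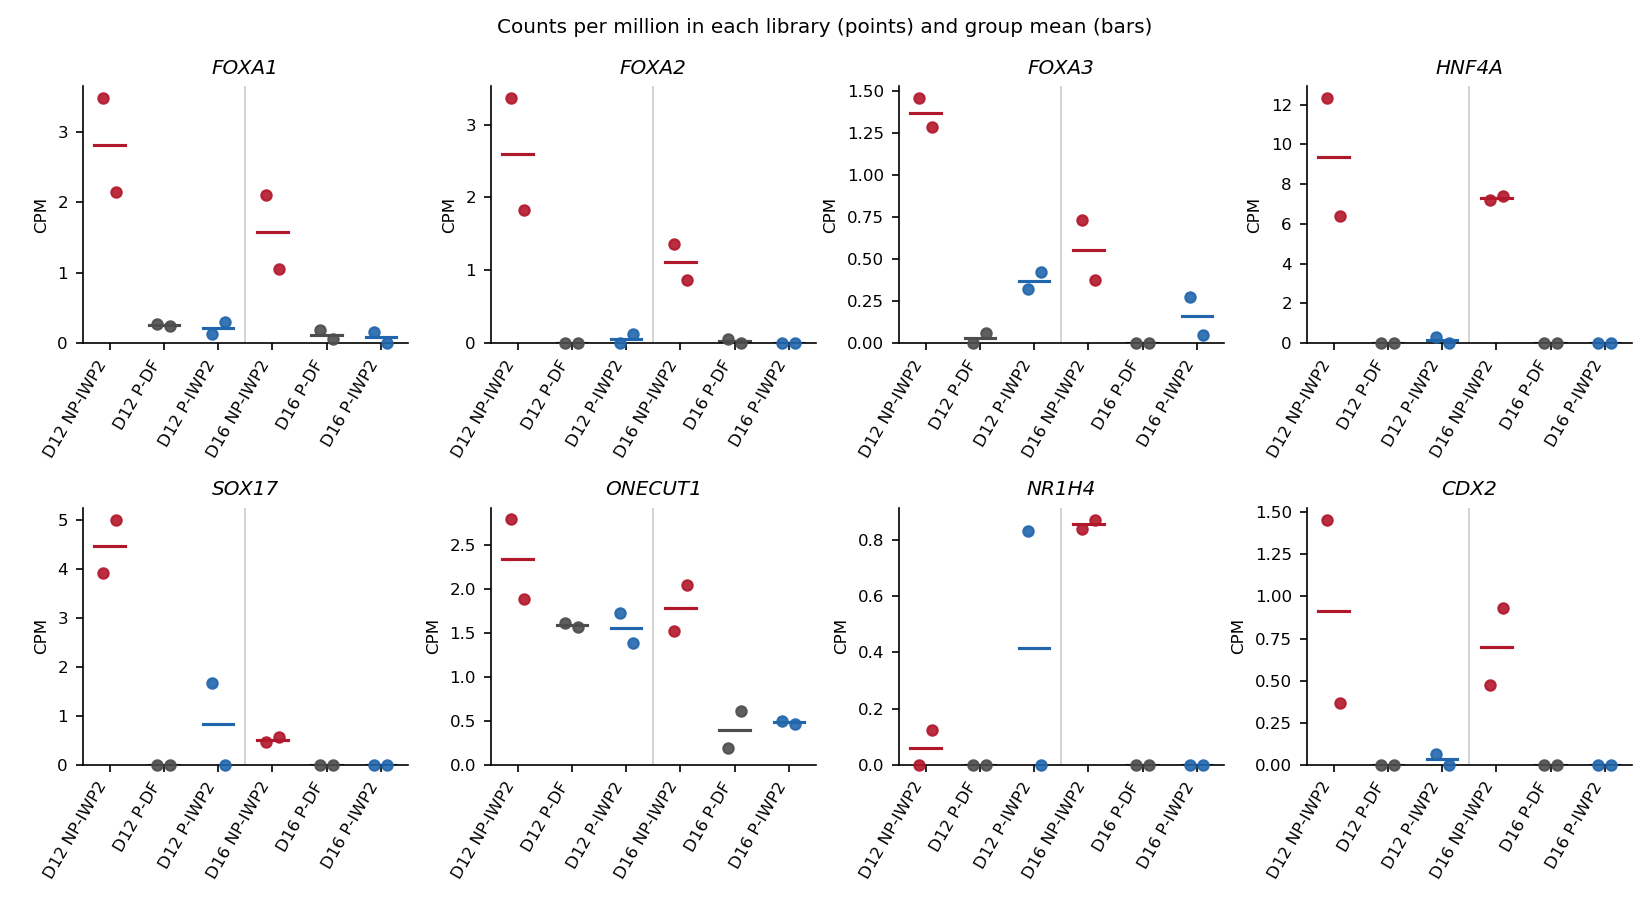
CPM of each member (y axis, linear, a separate scale per panel) in the 6 groups (x axis); points are the 2 libraries of a group and bars their mean. HNF4A was at 6.41 to 12.3 CPM in the 4 NP-IWP2 libraries and at 0 to 0.320 CPM in the 8 passaged libraries, while ONECUT1 on Day 12 lay at 1.39 to 1.73 CPM in passaged cells.

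Compared to static culture, the members were lower in passaged cells wherever they passed the test. In P-DF against NP-IWP2, 4 of the 8 members were called lower on Day 12 (background: 3.32% of all genes tested were called lower), 5 on Day 16 (background 9.86%), and 7 over both days in the model with the day as a term (background 18.9% lower and 14.6% higher). In P-IWP2 against NP-IWP2, 2 were called lower on Day 12 (background 1.33%), 4 on Day 16 (background 9.95%) and 4 over both days (background 2.07% lower and 0.400% higher). No member was called higher in any of these 6 comparisons. The P-DF and P-IWP2 comparisons use the same NP-IWP2 libraries. The counts on single days rested on individual libraries. On Day 12, no member was called in P-DF when any 1 of the 4 libraries compared was left out, and on Day 16 a single member was called when any 1 of the 4 was left out. In P-IWP2 no member was called on Day 12 without either static library of that day, 1 or 2 were called on Day 16 without any 1 of the 4 libraries compared, and 1 to 3 were called over both days without any 1 library other than D12 P-IWP2 replicate 5. Without replicate 5, 7 members were called in P-IWP2 over both days (background 14.1% lower), 4 on Day 12 (background 9.57%) and 7 on Day 16 (background 18.5%). The P-DF counts on single days also rose without replicate 5, which is in neither group compared, and they were the same when replicate 6 was left out instead. Replicate 5 enters those fits through the shared estimate of spread and through the filter. The filter was run again without it and was looser, with 20518 genes tested. In P-DF over both days the count was 7 or 8 whichever library was left out.

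**Figure D2:**
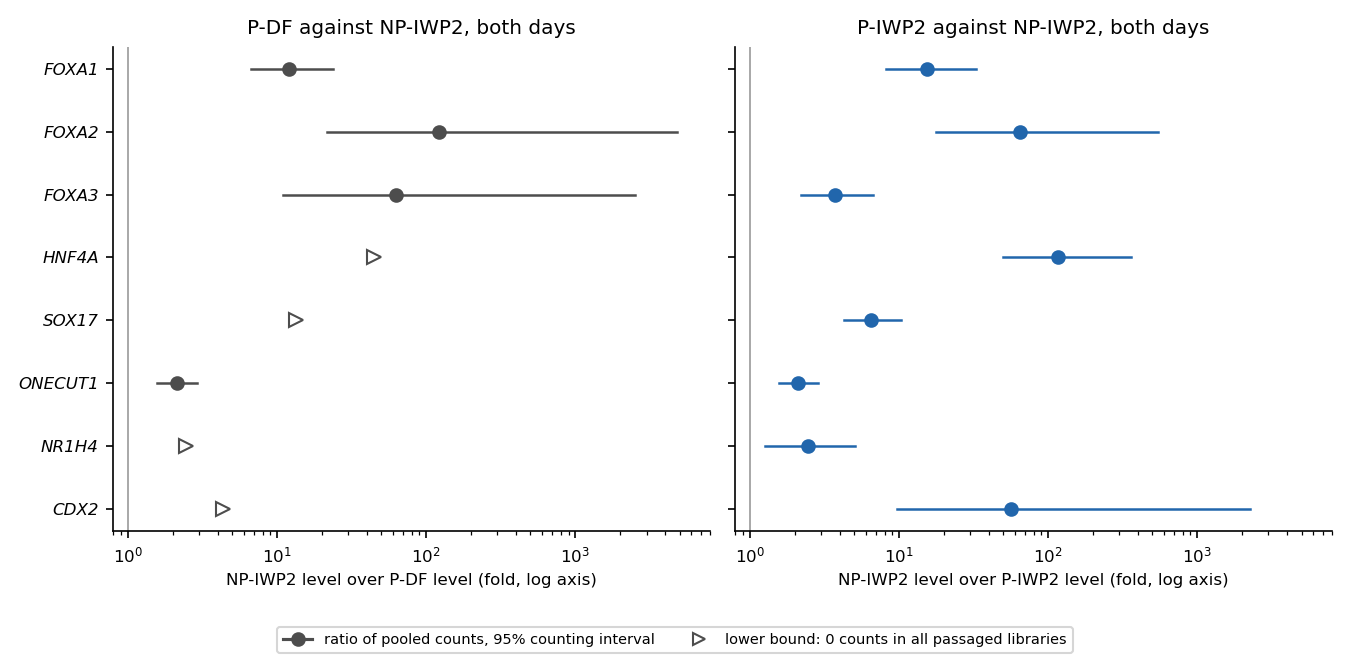
Level in NP-IWP2 divided by the level in P-DF (left) and P-IWP2 (right) over both days, on a log axis; circles are ratios of pooled counts with exact 95% counting intervals, which leave out the spread between libraries, and open triangles are lower bounds for members at 0 counts in all 4 P-DF libraries. All 8 members lie above 1 in both panels. The ratios run from 2.10-fold (ONECUT1 in P-IWP2) to 122-fold (FOXA2 in P-DF), the latter from 1 count in P-DF and with an interval from 21.5. The bounds are minimum values. HNF4A in P-DF, at least 44.9-fold from 581 static counts and 0 in P-DF, therefore cannot be ranked below FOXA2.

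HNF4A, the nuclear receptor of hepatocytes, showed the lowest adjusted p of the 8 members in all 6 comparisons of passaged with static cells. It had 220 and 105 counts in D12 NP-IWP2 and 137 and 119 in D16 NP-IWP2. In P-DF it had 0 counts in all 4 libraries, and in P-IWP2 it had 5 in D12 replicate 5 and 0 in the other 3. The 4 static libraries did not overlap with the 8 passaged ones. Against the limit of 3 counts per library, HNF4A was at least 48.1-fold lower in P-DF on Day 12 (adjusted p = 0.0157, edgeR) and at least 41.3-fold lower on Day 16 (adjusted p = 0.00615). In P-IWP2 it was 61.1-fold lower on Day 12 (exact 95% counting interval 25.9 to 189, adjusted p = 0.028, edgeR, or 2.5e-04 without replicate 5) and at least 45.2-fold lower on Day 16 (adjusted p = 0.00576). Over both days, it was at least 44.9-fold lower in P-DF (adjusted p = 7.5e-05), and passed the test in all 13 alternatives. In P-IWP2 it was 116-fold lower over both days (interval 49.5 to 359, adjusted p = 0.00849, and 4.0e-04 without replicate 5), and also passed in all 13 alternatives. In static culture its level was 0.92 ± 0.41 FPKM (SD, n = 2) on Day 12 and 0.72 ± 0.014 on Day 16, with overlapping libraries.

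Of 17 genes of secreted liver proteins, which HNF4A is known to regulate, 16 were tested. All 16 were called lower in P-DF over both days (background 18.9%). Their median log2 fold change was -10.55 (-8.65 with genes at 0 in P-DF set to their bound, against -0.003 for all genes). In P-IWP2, 13 of the 16 were called lower (background 2.07%) and none higher (median -9.22, or -8.97 at the bound, against 0 for all genes). Without replicate 5, all 17 passed the filter and were called lower (background 14.1%). Of the 16, 12 reached the filter's level in fewer than 2 passaged libraries and so were tested only through static culture, which partly fixes these counts and medians. Their summed level was 544 to 764 FPKM in D12 NP-IWP2 and 956 to 1148 in D16 NP-IWP2, and 7.49 to 25.8 in the passaged libraries. AFP, the fetal serum protein of liver and yolk sac, had 17114 and 11040 counts in D12 NP-IWP2 and 28424 and 19581 in D16 NP-IWP2, against 0 to 39 in passaged libraries. APOA2 had 633 to 1717 counts in static and 0 or 1 in passaged libraries. APOA1 kept 99 to 396 counts in passaged libraries, and its log2 fold change was -3.36 ± 0.25 (SE) in P-DF. ALB, the serum albumin of later hepatocytes, had the largest difference between days in static culture among the 16 genes tested, at 20 and 27 counts on Day 12 and 555 and 288 on Day 16 (log2 fold change 4.21, adjusted p = 0.0087, edgeR). HNF4A itself was not called between these days.

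**Figure D3:**
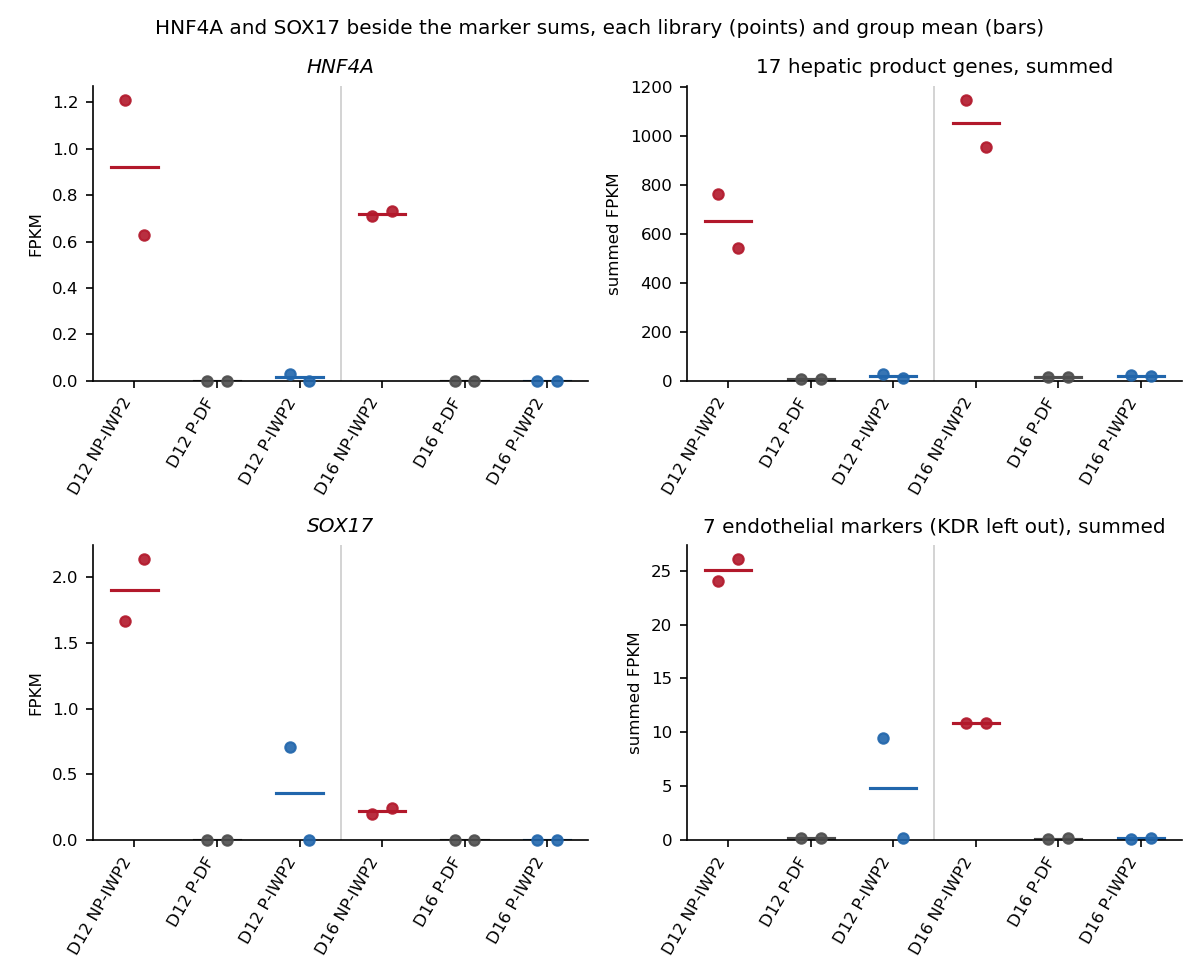
FPKM of HNF4A and SOX17 (left) and summed FPKM of 17 hepatic product genes and 7 endothelial markers (right) in the 6 groups (x axis), on linear axes; points are libraries and bars group means. Both hepatic panels are high in NP-IWP2 only. D12 P-IWP2 replicate 5 is the 1 passaged library with raised SOX17 (0.71 FPKM) and a raised sum of these 7 endothelial markers (9.44 FPKM). KDR, the highest gene of the endothelial list, is left out of that panel, a choice made after its values were seen. With KDR, the sum of replicate 5 was 20.6 FPKM, below the 161 to 233 of the other Day 12 libraries.

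The FOXA factors, which open chromatin in endoderm and liver, were low genes, at most 1.24 FPKM in any library. FOXA2 had 60 and 30 counts in D12 NP-IWP2 and 26 and 14 in D16 NP-IWP2. In passaged cells, it had 1 count in D16 P-DF replicate 3, 2 in D12 P-IWP2 replicate 6 and 0 in the other 6 libraries, so static and passaged libraries did not overlap. It was at least 13.3-fold lower in P-DF on Day 12 (adjusted p = 0.0242, edgeR) and 42.3-fold lower in P-IWP2 (interval 11.4 to 355, adjusted p = 0.0494, or 0.0111 without replicate 5). On Day 16 it was 38.8-fold lower in P-DF (interval 6.58 to 1.57e+03, adjusted p = 0.0314) and at least 6.93-fold lower in P-IWP2 (adjusted p = 0.0183). Over both days, FOXA2 was 122-fold lower in P-DF (interval 21.5 to 4.84e+03, adjusted p = 2.1e-04) and 65-fold lower in P-IWP2 (interval 17.6 to 543, adjusted p = 0.0112, or 0.00205 without replicate 5). The lncRNA LINC00261, the neighbour of FOXA2, had 44 to 231 counts in the 4 static libraries and 0 to 4 in the passaged ones, and was called lower in both treatments over both days (adjusted p = 1.1e-04 in P-DF and 0.0025 in P-IWP2). Like FOXA2, LINC00261 was tested only because it was high in static culture, so its calls add nothing to those of FOXA2.

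FOXA1 had 62 and 35 counts in D12 NP-IWP2 and 40 and 17 in D16 NP-IWP2. Unlike FOXA2, it kept a few counts in most passaged libraries, with 4 and 4 in D12 P-DF, 2 and 5 in D12 P-IWP2, 3 and 1 in D16 P-DF and 3 and 0 in D16 P-IWP2. All static libraries lay above all passaged ones. The log2 fold change of FOXA1 over both days was -3.38 ± 0.43 (SE) in P-DF (adjusted p = 3.6e-04, edgeR) and -3.77 ± 0.62 in P-IWP2 (adjusted p = 0.0268, or 0.00575 without replicate 5), and it was called in each P-DF comparison. In P-IWP2 it passed on Day 16 (adjusted p = 0.0183) and missed the threshold on Day 12 (adjusted p = 0.0544, or 0.0216 without replicate 5). FOXA3, the FOXA factor of hepatocytes, was called in the P-DF comparisons and in none of the P-IWP2 ones. It had 26 and 21 counts in D12 NP-IWP2 and 14 and 6 in D16 NP-IWP2, and 1 count in the 4 P-DF libraries together. In P-IWP2 it had 5 and 7 counts on Day 12 and 5 and 1 on Day 16. It was called lower in P-DF on Day 12 (42.4-fold, interval 7.24 to 1.71e+03, adjusted p = 0.0337) and on Day 16 (at least 3.14-fold, adjusted p = 0.0254), and over both days (62.7-fold, interval 10.9 to 2.51e+03, adjusted p = 4.0e-04). In P-IWP2 it was 3.72-fold lower over both days by its counts (interval 2.19 to 6.66), and did not pass (log2 fold change -1.71 ± 0.48, adjusted p = 0.132, or 0.0645 without replicate 5). In the direct test of P-IWP2 against P-DF, FOXA3 had a log2 fold change of 3.55 ± 1.01 and an adjusted p of 0.833, so a difference between the passaged treatments was not shown.

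SOX17, a factor of endoderm and of arterial endothelium, lies on chromosome 8 (54457935 to 54460892, plus strand). It was the member with the highest level in D12 NP-IWP2, at 1.91 ± 0.33 FPKM (SD, n = 2). FOXA2 (0.955 ± 0.40) and HNF4A (0.92 ± 0.41) followed and overlapped with each other. SOX17 had 70 and 82 counts in D12 NP-IWP2 and 9 and 9 in D16 NP-IWP2. In passaged cells, it had 26 counts in D12 P-IWP2 replicate 5 and 0 in the other 7 libraries. In P-DF it was at least 22.9-fold lower on Day 12 (adjusted p = 0.0715, edgeR) and at least 2.92-fold lower on Day 16 (adjusted p = 0.182), and at least 13.4-fold lower over both days (adjusted p = 2.1e-04). In P-IWP2 it did not pass on Day 12 (5.49-fold lower, interval 3.61 to 8.68, adjusted p = 0.455), on Day 16 (at least 3.2-fold, adjusted p = 0.167) or over both days (6.54-fold, interval 4.31 to 10.3, adjusted p = 0.201). D12 P-IWP2 replicate 5 held the only passaged counts of SOX17 and was set apart partly by those counts. Fits without it therefore set static cells against 0 counts, and passing in them gives no further support. Over both days, the adjusted p for P-IWP2 was then 0.0013 (edgeR). On single days, those fits leave 1 library in a group. Their log2 fold changes were -9.08 in both treatments on Day 12 and -6.09 in both on Day 16.

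Most endothelial markers were, like SOX17, lower in P-DF than in static culture. Of 8 markers, 7 were called lower in P-DF over both days (background 18.9%) and none higher (median log2 fold change -6.70). In P-IWP2 1, TEK, was called lower (background 2.07%, median -2.37). Without replicate 5, 7 were called lower in P-IWP2 (background 14.1%, median -6.16). Of the 8, 7 were likewise tested only through static culture. CDH5, the cadherin of endothelial junctions, had 514 and 602 counts in D12 NP-IWP2, 247 in D12 P-IWP2 replicate 5, 16 and 28 in D16 NP-IWP2 and 1 to 6 in the other 7 passaged libraries. TEK, the angiopoietin receptor, did not follow that pattern across days, with 985 and 855 counts in D12 NP-IWP2 and 942 and 776 in D16 NP-IWP2. KDR, a VEGF receptor also made by cardiovascular progenitors, held most of the summed level of the list and was at 16236 to 24377 counts in the Day 12 libraries other than replicate 5. The summed level of the 8 genes was 183 to 201 FPKM in D12 NP-IWP2, 161 to 224 in D12 P-DF, 20.6 to 233 in D12 P-IWP2, 50.1 to 50.2 in D16 NP-IWP2, 13.4 to 15.0 in D16 P-DF and 10.1 to 13.0 in D16 P-IWP2. Without KDR, a choice made after its values were seen, the sum was 24.0 to 26.1 FPKM in D12 NP-IWP2, 10.8 to 10.9 in D16 NP-IWP2, 9.44 in D12 P-IWP2 replicate 5 and 0.04 to 0.21 in the other passaged libraries. PECAM1 was at 0 counts in 4 of the 8 passaged libraries. The part of these cells in the SOX17 result was not tested.

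CDX2, the intestinal factor, had 26 and 6 counts in D12 NP-IWP2 and 9 and 15 in D16 NP-IWP2. In passaged cells, it had 1 count in D12 P-IWP2 replicate 5 and 0 in the other 7 libraries, so the static libraries did not overlap with the passaged ones. It was at least 4.68-fold lower in P-DF on Day 12 (adjusted p = 0.0833, edgeR, or 0.0145 without replicate 5) and at least 3.98-fold lower on Day 16 (adjusted p = 0.0574, or 0.0167), and passed over both days (at least 4.35-fold, adjusted p = 0.00682). In P-IWP2 it was 56-fold lower over both days (interval 9.65 to 2.25e+03, adjusted p = 0.0334, and 0.0182 without replicate 5), and missed the threshold on Day 12 (adjusted p = 0.197, or 0.0623 without replicate 5) and on Day 16 (adjusted p = 0.0513, or 0.0145 without it, which passes). Of 9 gut tube factors, 3 were tested. All 3 (SOX9, KLF5 and HNF4G) were called lower in P-DF over both days (background 18.9%), while HNF4G alone was called in P-IWP2 (background 2.07%). HNF4G was tested only through static culture, as it reached the filter's level in no passaged library. Without replicate 5, 5 were tested in P-IWP2, with 4 called lower (background 14.1%) and 1, SOX2, higher. SOX2 was tested there only because the filter was looser in that fit. It was near the floor, at 5 to 10 counts in the P-IWP2 libraries kept and 0 to 3 in static ones. The share of all genes called higher also rose in that fit. HNF4G, the paralog of HNF4A in the intestine, had 28 to 56 counts in static and 3 to 8 in passaged libraries. CDX4 was at 0 counts in all 12 libraries, and PDX1 of pancreas and NKX2-1 of lung and thyroid had at most 3 counts.

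Of 8 intestinal product genes, 6 were tested. In P-DF over both days 4 were called lower and 1 higher (background 18.9% and 14.6%). In P-IWP2 2 were called lower and none higher (background 2.07% and 0.400%), and 3 of 7 tested were lower without replicate 5 (background 14.1%). Of the 6, 3, APOA4 and FABP1 among them, reached the filter's level in fewer than 2 passaged libraries. They were tested only through static culture, which partly fixes these counts. APOA4, an apolipoprotein of gut and fetal liver, had 804 and 939 counts in D12 NP-IWP2 and 2341 and 3397 in D16 NP-IWP2, and 0 in all 8 passaged libraries. FABP1, a fatty acid carrier of liver and gut, had 52 to 337 counts in static and 0 to 4 in passaged libraries. FABP2, the carrier of enterocytes, went the other way in P-DF, with a log2 fold change of 1.55 over both days (adjusted p = 0.00154, edgeR). It had 369 and 293 counts in D12 P-DF against 94 and 82 in D12 NP-IWP2.

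ONECUT1, the cut-domain factor of liver and biliary progenitors, had the smallest fold differences on Day 12 among the members with a fold. It had 50 and 31 counts in D12 NP-IWP2, 24 and 25 in D12 P-DF and 27 and 23 in D12 P-IWP2, which is 1.49-fold lower in P-DF (interval 1.03 to 2.17, adjusted p = 0.538, edgeR) and 1.52-fold lower in P-IWP2 (interval 1.06 to 2.21, adjusted p = 0.675, or 0.432 without replicate 5). On Day 16 it had 29 and 33 counts in NP-IWP2, 3 and 11 in P-DF and 9 and 9 in P-IWP2. It was called lower on that day in P-DF (log2 fold change -1.88 ± 0.48, adjusted p = 0.0311) and in P-IWP2 (-1.59 ± 0.47, adjusted p = 0.0466). Both calls sat close to the threshold and were lost when either Day 16 static library was left out. Over both days it did not pass in P-DF (-1.05 ± 0.38, adjusted p = 0.0615) or in P-IWP2 (-1.06 ± 0.31, adjusted p = 0.144, or 0.0363 without replicate 5). The difference between the days was not called in the interaction of day and treatment (adjusted p = 0.415 in P-DF and 0.406 in P-IWP2). ONECUT2, its paralog, was not called in either treatment over both days, and ONECUT3 had at most 2 counts.

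NR1H4, the bile acid receptor, had 0 and 2 counts in D12 NP-IWP2 and 16 and 14 in D16 NP-IWP2. In passaged cells, it had 13 counts in D12 P-IWP2 replicate 5 and 0 in the other 7 libraries. On Day 12 both static libraries were under the limit of 3 counts, so no fold against P-DF can be given for that day. In P-IWP2 on Day 12, the 13 counts of replicate 5 against 2 static counts give a ratio of 6.92 (interval 1.57 to 63.1, adjusted p = 0.673, and 0.55 without replicate 5, when the direction turned). On Day 16 it was at least 4.85-fold lower in P-DF (adjusted p = 0.104, edgeR, or 0.00677 without D12 P-IWP2 replicate 5) and at least 5.3-fold lower in P-IWP2 (adjusted p = 0.0938, or 0.00587), so that both were called without that library. Over both days it was called in P-DF (at least 2.47-fold lower, adjusted p = 0.0102). In P-IWP2 the log2 fold change over both days was -0.93 ± 1.64 (adjusted p = 0.809), and without replicate 5 the adjusted p was 0.0191. Replicate 5 held the only passaged counts of NR1H4, so the calls without it give no further support. None of the bile acid genes tested, several of them known targets of NR1H4 in liver and gut, was called lower. Of 8 bile acid genes, 3 were tested. Of these, 2 (ABCB11 and ABCB4, the canalicular pumps for bile salts and phospholipids) were called higher in P-DF over both days (background 14.6%). None was called in P-IWP2, with or without replicate 5. ABCB11 was low, at 5 to 12 counts in static and 15 to 32 in P-DF libraries. In P-IWP2 it had 126 counts in D12 replicate 5 and 7 to 26 in the other libraries. ABCB4 had 128 and 85 counts in D12 NP-IWP2 and 242 and 174 in D16 NP-IWP2, against 110 and 152 in D12 P-DF and 466 and 461 in D16 P-DF. As CPM, this was 7.17 and 5.19 in static culture against 7.39 and 9.53 in P-DF on Day 12, and 12.7 and 10.8 against 28.9 and 25.6 on Day 16, so the groups lay closer on Day 12. In D16 P-IWP2, ABCB4 was at 25.9 and 22.1 CPM, also above static culture. NR0B2 (SHP) and FGF19 had at most 7 counts in any library.

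Between Day 12 and Day 16, few members differed. In NP-IWP2, no member was called (background: 1.98% of genes called in either direction), and 2 of the 8 had an unadjusted p under 0.05. SOX17 had 70 and 82 counts on Day 12 and 9 and 9 on Day 16, a log2 fold change of -2.99 ± 1.12 that did not pass (adjusted p = 0.219, edgeR). NR1H4 differed in the other direction, with 0 and 2 counts on Day 12 and 16 and 14 on Day 16 (14.6-fold higher, interval 3.71 to 126, adjusted p = 0.247). Both passed (background then 17.1%) without D12 P-IWP2 replicate 5, which is no static library and enters through the shared spread, with an adjusted p of 0.00169 for SOX17 and 0.0273 for NR1H4. In P-DF, ONECUT1 was the 1 member called (background 13.6%), with 24 and 25 counts on Day 12 and 3 and 11 on Day 16 (log2 fold change -1.70 ± 0.49, adjusted p = 0.0497). This call held in 6 of 19 alternatives and was lost with the replicate block, DESeq2, both limma fits and 9 of the 12 fits that left out a library. In P-IWP2 none was called (background 27.0%), and ONECUT1 had a log2 fold change of -1.26 ± 0.47 (adjusted p = 0.0747). No member was called in the interaction of day with P-DF (background 0.482%) or with P-IWP2 (background 1.84%).

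The direct comparison of the passaged treatments, P-IWP2 against P-DF over both days, gave 0 calls among the members and 0.00% among all genes with edgeR, where 1032 genes had an unadjusted p under 0.05. At these depths, differences between the treatments were not detectable for FOXA1 (1.28-fold lower in P-IWP2, interval 0.508 to 3.31) and ONECUT1 (1.01-fold, interval 0.706 to 1.45). For FOXA3, 18 counts in P-IWP2 and 1 in P-DF give a ratio of 16.8 (interval 2.66 to 702). HNF4A, SOX17 and NR1H4 had counts in P-IWP2 only through D12 replicate 5.

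**Figure D4:**
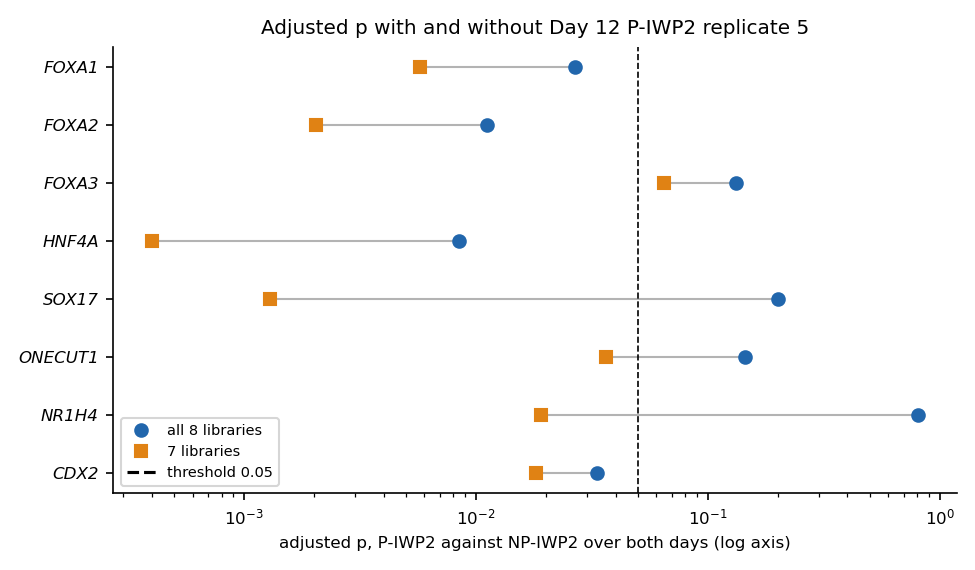
Benjamini-Hochberg adjusted p of each member (x axis, log scale) for P-IWP2 against NP-IWP2 over both days, with all 8 libraries (circles) and without D12 P-IWP2 replicate 5 (squares); the dashed line is the threshold of 0.05. SOX17, ONECUT1 and NR1H4 cross the threshold when that library is left out, and FOXA3 stays above it at 0.0645.

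Other factors of the same lineages were described from lists. Of 9 further endoderm factors, 7 were tested. In P-DF over both days 4 were called lower and none higher (median log2 fold change -0.94, background 18.9% lower and 14.6% higher). Of the 7, 3 (EOMES, OTX2 and HHEX) reached the filter's level in fewer than 2 passaged libraries. They were tested only through static culture, which partly fixes this count. HHEX, a factor of anterior endoderm and of endothelium, had 179 and 102 counts in D12 NP-IWP2 and 42 and 11 in D16 NP-IWP2, against 0 in the 4 P-DF libraries. OTX2 had 15 to 90 counts in static and 0 to 8 in passaged libraries. It was the 1 gene of this list called in P-IWP2 (background 2.07% lower), where 3 were called lower without replicate 5 (background 14.1%). GATA4 and GATA6, which heart and endoderm share, were not called in either treatment over both days, with a log2 fold change of -0.16 for both in P-DF. GATA5 fell by 0.94 on the log2 scale in P-DF (adjusted p = 0.00138, edgeR). Of 13 further hepatic factors, 11 were tested. In P-DF 4 were called lower and 3 higher (background 18.9% and 14.6%), and in P-IWP2 2 lower and none higher (background 2.07% and 0.400%). Without replicate 5, 5 were called lower (background 14.1%) and 1, TBX3, higher in P-IWP2. CEBPA and CREB3L3 were called lower in both treatments. Of the 11, 3, CREB3L3 among them, were tested only through static culture, which partly fixes these counts. CEBPA, which drives hepatocyte metabolism, had 88 to 172 counts in static and 4 to 28 in passaged libraries. PROX1 and TBX3, which have roles in both liver and heart, were called higher in P-DF over both days, with log2 fold changes of 0.61 and 0.35. By CPM, TBX3 lay higher on Day 12 only, at 77.5 and 71.1 in P-DF against 62.3 and 51.1 in static culture. On Day 16 its libraries overlapped, at 13.9 and 12.9 against 13.0 and 14.4. RXRA, the partner of NR1H4, was not called.

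Epithelial markers and heart genes were also measured. Of 7 epithelial markers, 6 were called lower in P-DF and 1 (CLDN6) higher (background 18.9% and 14.6%). In P-IWP2 3 were called lower, with replicate 5 (background 2.07%) or without it (background 14.1%), and CLDN6 was called higher without it. Of the 7, 1 was tested only through static culture. CDH1 (E-cadherin) had 212 to 566 counts in static and 0 to 26 in passaged libraries, whereas KRT8 and KRT18, which early heart muscle also makes, were expressed in every library. Of 5 trophoblast markers, which were included because CDX2 also marks that lineage, ELF5 and VGLL1 were at 0 counts in all libraries and GATA3 alone was tested. GATA3 had 833 counts in D12 P-IWP2 replicate 5, 132 to 331 in static libraries and 7 to 46 in the other passaged ones. Of 11 cardiomyocyte markers, 9 were called higher in P-DF over both days (background 14.6%) and none lower. None was called in P-IWP2 (background 0.400% higher), where the median log2 fold change was 0.55. Without replicate 5, 8 of the 11 were called higher in P-IWP2 and none lower (median 1.00). More of all genes were called in that fit, with 14.1% lower against 2.07% before. Its share of genes called higher is not given here, so this count describes the list only.

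**Figure D5:**
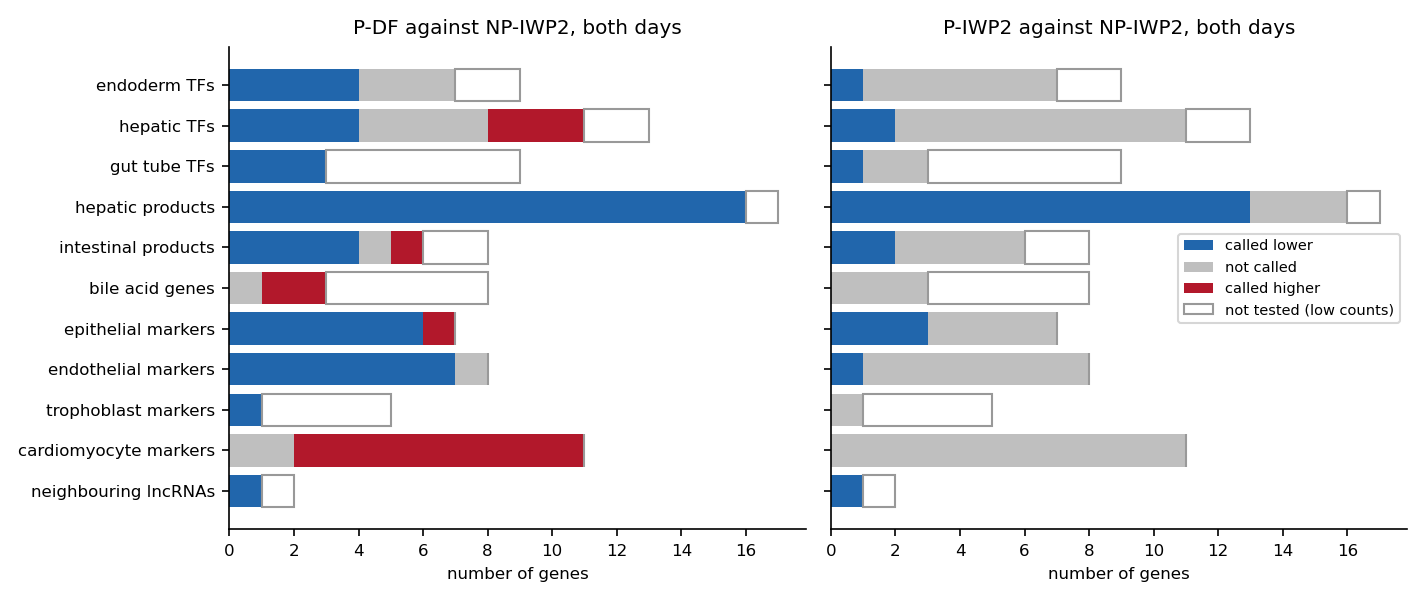
Number of genes (x axis) in 11 lists that were called lower (blue), not called (grey), called higher (red) or not tested for low counts (white) in P-DF (left) and P-IWP2 (right) against NP-IWP2 over both days. All 16 tested hepatic product genes are called lower in P-DF and 13 in P-IWP2, while 9 of 11 cardiomyocyte markers are called higher in P-DF and none in P-IWP2. Of all genes tested, 18.9% were called lower and 14.6% higher in P-DF, and 2.07% and 0.400% in P-IWP2.

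Across the 12 libraries, the members' own log2 levels ran together to different degrees, given here as a description over libraries that share treatment and depth. Pearson's r was 0.98 between FOXA1 and FOXA2, 0.96 between FOXA2 and HNF4A, 0.95 between HNF4A and CDX2 and 0.77 between HNF4A and SOX17. NR1H4 was least like the others, with r from 0.27 (FOXA2) to 0.50 (HNF4A). Among the genes tested that have a symbol and are not members, those most like HNF4A were DPYS, SLC13A5 and FMO1 (r = 0.99 or above). Those most like FOXA2 were PITX1, ZIC2 and LINC00261, and those most like FOXA1 were PLA2G12B, SLC22A7 and PITX1. The genes most like SOX17 were ERG, TOGARAM2 and CD40 (r = 0.99 for each), of which ERG is on the endothelial list. CDX2 was most like CTSE, PCK1 and SERPINC1 (r = 0.97 to 0.98), and FOXA3 like PROK1, SELE and TYMP (r = 0.94 to 0.96). ONECUT1 was most like DTX2, TPGS2 and STAMBP (r = 0.96 to 0.97 each), and NR1H4 like TMEM151A, RBP3 and TRPC5 (r = 0.96 to 0.99).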

How the data were processed

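The 12 RNA-seq libraries of H1 cells were put into 6 groups of 2, by treatment and day, from GEO's labels. The authors deposited one table with read counts per Ensembl gene, not normalized, and FPKM made from them; per the labels, cutadapt 1.9.1, HISAT2 2.0.1 (genome build hg38), HTSeq 0.6.1 and DESeq2 were used. The labels name a SMRTbell kit for the libraries; how it relates to these tools is not given in the sources used here. Deposited FPKM equal the count scaled to exon length and library total to within 0.005. CPM here is the count scaled to the library total.

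Counts (14885589 to 19176239 per library) were tested in R 4.3.3 by edgeR 4.0.16 after TMM scaling and filterByExpr (19505 of 61806 genes left) using the quasi-likelihood test, and genes were called at a Benjamini-Hochberg adjusted p of 0.05. One model of 6 groups served comparisons on single days, between days and their interaction; over both days, a pair of treatments (8 libraries) was fitted together, day being the second factor. Errors are SD of 2 libraries or, for fitted log2 fold changes, an SE. This SE is the absolute log2 fold change divided by the square root of the F statistic of its test. Ratios of counts have exact 95% conditional binomial intervals, and bounds take 3 counts per library as the limit for a count of 0, averaged over the group as CPM. Where a library was left out, the filter was run again on the libraries kept. The fitting code was tested on simulated data.

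Named genes are the 8 members and genes from each of 11 lists, led by the 3 with the highest mean FPKM. The 3 genes with the highest Pearson r to each member on log2(CPM + 0.5) over 12 libraries are also named. That search left out the members and genes without a symbol. Further list genes were named after their values were seen. A gene first placed in the list of hepatic factors is not reported here, and the counts of that list leave it out. The members and lists were chosen with earlier results of these data known. Alternatives were DESeq2 1.42.0, total counts, no filter, only the groups compared, limma 3.58.1 on log2(FPKM + 1) or log2(FPKM + 0.1) for genes with a mean FPKM of at least 0.1, a replicate block, and leaving out each library in turn.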

Additional observations from a re-analysis of the deposited data

How the results depend on the processing

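Among 63 fold changes of single members, 1034 recomputed values gave 831 with the same direction and side of the threshold, 124 that lost a call, 72 that gained one and 7 that changed direction. The 7 were NR1H4 in P-IWP2 against NP-IWP2 on Day 12 (-3.02 to 5.577 on the log2 scale when 1 library was left out, -3.02 without D12 P-IWP2 replicate 5) and over both days (-6.288 to 0.061, above 0 without D16 P-IWP2 replicate 5 or 6), and, for Day 16 against Day 12 in NP-IWP2, HNF4A (-0.654 to 0.31), ONECUT1 (-0.554 to 0.032) and CDX2 (-0.965 to 1.024), above 0 without D12 NP-IWP2 replicate 1 and, for CDX2, also without D16 NP-IWP2 replicate 1. None of these 7 was called in the edgeR model used.

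The number of members called moved by more than 1.5 times as follows. Without the filter it was 5 in P-IWP2 on Day 12, 8 in P-DF and 7 in P-IWP2 on Day 16, 2 for time in NP-IWP2, 2 for time in P-IWP2, 1 in the P-IWP2 interaction and 1 in P-IWP2 against P-DF. With only the groups compared it was 0 in P-IWP2 on Day 12, 8 in P-DF and 7 in P-IWP2 on Day 16 and 2 for time in NP-IWP2. With total counts it was 1 in P-IWP2 on Day 12 and 1 for time in P-IWP2. With limma and a pseudocount of 1 it was 4 in P-IWP2 on Day 12, 1 in P-DF and 1 in P-IWP2 on Day 16, 1 for time in NP-IWP2, 0 for time in P-DF and 1 in P-IWP2 over both days, and with 0.1 it was 0 for time in P-DF. NR1H4 was under the limma minimum in all comparisons, CDX2 in all but P-DF and P-IWP2 against NP-IWP2 over both days, and all members but ONECUT1 in P-IWP2 against P-DF. DESeq2 gave 0 for time in P-DF. Total counts moved the median of all genes by up to -0.49 on the log2 scale (time in P-IWP2) and, over both days, by -0.16 (P-DF) and -0.13 (P-IWP2), and turned no direction of a member. Over all genes, the 481 calls of P-IWP2 over both days became 1488 with DESeq2, 1521 without the filter, and 139 to 4924 with 1 library left out. The cause of these changes was not tested.

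The replicate numbers are shared between days only, and did not pair libraries (correlations of deviations 0.0754, -0.0015 and -0.031). With a replicate block the count was 0 for time in P-DF, 1 for time in P-IWP2, and 0 for time in NP-IWP2 and both interactions.

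Leaving out each library in turn, a lone library being assumed to vary like the other groups, gave 0 to 6 members in P-DF and 0 to 4 in P-IWP2 on Day 12, 1 to 8 and 1 to 7 on Day 16, 7 to 8 and 1 to 7 over both days, 0 to 2 for time in NP-IWP2, 0 to 1 in P-DF and 0 to 2 in P-IWP2, and 0 to 1 in the P-IWP2 interaction. The P-DF interaction and P-IWP2 against P-DF stayed at 0 in these fits. Depth limits what can be said at 0 counts: a bound cannot exceed the static level over 3 counts per library, which for NR1H4 over both days is 2.47-fold.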
